A study of Mus musculus with 3 samples.

Results

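Cytokine receptor chains, the JAK kinases and STAT factors they engage, and the feedback inhibitors that restrain them were described in RNA-seq libraries of mouse T-helper 1 cells. The 41 genes were taken by symbol from the 50600 genes counted, and all 41 were found: 23 receptor chains, 4 kinases, 5 STATs and 9 feedback inhibitors. Type I and type II cytokine receptors carry no enzyme of their own; ligand binding brings receptor-bound JAK kinases together, and these phosphorylate the receptor and then STATs, which enter the nucleus and act as transcription factors. STATs induce SOCS genes and Cish, whose products bind receptors or JAKs and dampen the same signal. In T helper cells this route carries the IL-2 signal for growth and survival, and other cytokines use it to steer the choice of helper subset.

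The study held 1 group, primary T-helper 1 cells of mouse strain C57BL/6NJ, in 3 biological replicates with separate biosample records that share a donor record. Sex was not collected, age and stage were unknown, no treatment was named, and the headers name the cells with a 16 hr label whose meaning is not given. There was no second condition, so genes were compared within a library and against the spread between the 3 libraries. All values below run in the order replicate 1, 2 and 3 unless a sentence says otherwise.

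The deposited counts summed to 4764598, 2568928 and 2815439, and the 41 genes held 9934, 4658 and 3938 of them. Levels in TPM, the usual transcript measure scaled by gene length and library, were computed from counts and gene lengths; 1 TPM stood for 2.25, 1.28 and 1.59 counts per kilobase. All 9 T cell markers were detected in every library, with Cd4 at 2208, 984 and 787 counts. Of 6 T-helper 1 markers 2 were detected, Il12rb2 (123, 75 and 91 counts) and Stat4 (64, 11 and 22 counts). Il12rb2 shares 1519 exon bases with a single gene of the other strand. Tbx21, with 2, 10 and 2 counts, Ifng, with 1, 0 and 0, Cxcr3 and Il18r1 were not detected. Markers of B, NK, dendritic and mast cells were detected in 0 of 5, 0 of 4, 0 of 4 and 0 of 4 cases, their summed levels reaching at most 8.53, 0.15, 4.803 and 2.07 TPM. Of 6 myeloid markers, Csf1r and Cd68 were detected, with Lyz2 and Itgam at 0 counts. Csf1r shares 871 exon bases with a single gene of the other strand. Cd8b1 had 97, 15 and 36 counts and Cd8a had 0. Of 3 regulatory T cell markers 2 were detected, Foxp3 (1001, 536 and 1010 counts) and Ctla4 (278, 118 and 94). Ikzf2, with 6, 0 and 7 counts, was not. Foxp3, like Csf1r, shares exon bases across strands. The libraries also differed in sex-linked genes: Xist had 807, 1110 and 4 counts and the Y-linked Ddx3y 161, 0 and 81, so replicate 2 lacked Y-linked RNA, replicate 3 had little Xist and replicate 1 held both. The part of these differences in the levels below was not tested. In RNA from a whole culture, fewer cells expressing a gene and less RNA per cell cannot be told apart.

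A gene was called detected at 1 TPM or more in every library. By this rule 29 of the 41 genes were detected, against 39.8% of 21764 coding genes. Another 6 were under 1 TPM in every library and 6 lay between. The median of the genes' mean levels was 8.20 TPM for the 41 genes and 0.378 TPM for all coding genes. On the log2(TPM + 1) scale the 2 medians were 3.15 ± 0.43 and 0.41 ± 0.29 (SD of the median over libraries, n = 3).

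**Figure D1:**
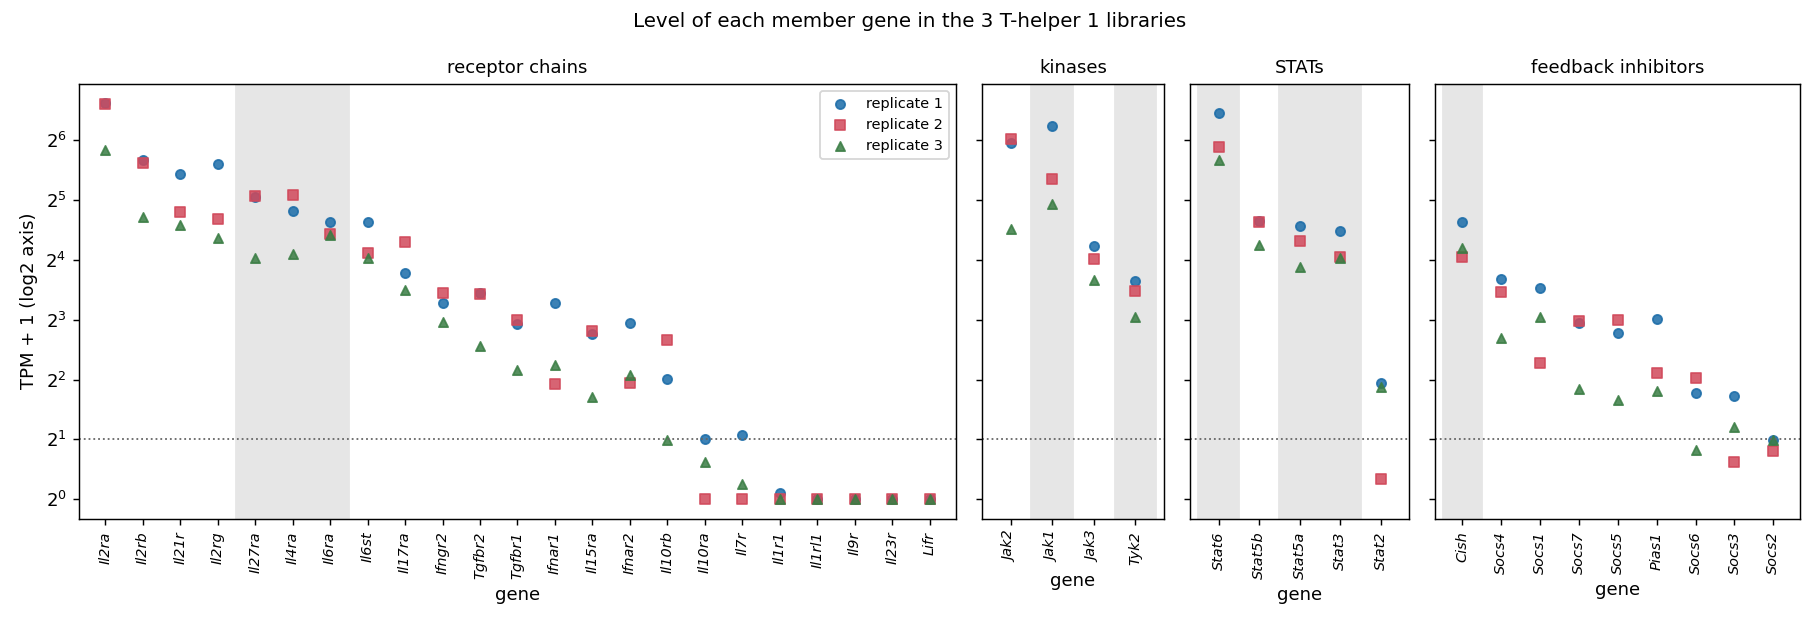
Each point is the level of a gene in a library, as TPM + 1 on a log2 axis, with genes ordered by mean level within each class; grey bands mark genes whose exons share bases with exons of the other strand, and the dotted line marks 1 TPM. Il2ra tops the receptor chains at 56.3 to 97.3 TPM, Stat6 tops the STATs, and the last 4 receptor chains lie at 0 in all 3 libraries.

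Exons of 9 of the 41 genes share at least 1 base with opposite-strand exons (22.1% of coding genes do). The reads were counted with a strand setting, and whether that setting suits the libraries was not tested. That setting bears on the levels of all 41 genes, including those with no such overlap. Cish, an inhibitor induced by IL-2 through STAT5, is the clearest case. Gm17041, a 479-base antisense transcript on chromosome 9, lies wholly within the exons of Cish, with 321 of its bases in the Cish coding sequence and 158 beyond the last coding base. To show what the counting setting has to separate, here is a 60-base stretch as it reads on each strand (build GRCm38; coding bases 254 to 313 of 771 in Cish, and transcript bases 420 to 479 of 479 in Gm17041, which is the reverse complement):
Cish: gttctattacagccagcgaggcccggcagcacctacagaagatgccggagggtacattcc
Gm17041: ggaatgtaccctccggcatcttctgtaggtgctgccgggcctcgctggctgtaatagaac
Cish had 345, 127 and 177 counts over 6419 exon bases, while Gm17041 had 3156, 1785 and 4136 over its 479. Per kilobase, Gm17041 therefore stood 122.6, 188.4 and 313.1 times above Cish, and the ratio was highest in replicate 3.

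The same order was found at all 5 noncoding genes opposite these 41. How often it occurs at noncoding genes opposite other coding genes was not counted, so it cannot be read as particular to this set. They share 242 to 571 exon bases with Cish (2 partners), Tyk2, Il4ra and Il6ra, and each had more counts per kilobase than its coding partner in 3 of 3 libraries, by 4.20 to 313.1 times. Tyk2 had 179, 89 and 79 counts, against 2100, 886 and 2261 for 1700084C06Rik, which shares 554 bases with Tyk2 exons ahead of the first coding base. Il4ra had 369, 252 and 155 counts, against 596, 437 and 479 for Gm44876 on 571 shared bases. Il6ra had 466, 228 and 281 counts, against 369, 126 and 399 for Gm42809 on 242 shared bases. The second partner of Cish, Gm17040, shares 261 bases with it and had 1018, 543 and 1382 counts. Only 22.7% of Gm17040 and 21.3% of Gm42809 is shared, so most of their length lies outside the overlap.

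The coding partners overlapped by only 2 to 72 bases, and 2 of them, Nab2 and Palm3, were above their gene per kilobase in 3 of 3 libraries, by 1.16 to 5.05 times. Stat3 and Stat5a lie tail to tail on chromosome 11 and share 72 bases, with 461, 190 and 233 counts for Stat3 and 364, 172 and 156 for Stat5a. Stat6 shares 40 bases with Nab2, which had 711, 319 and 400 counts against 866, 328 and 351 for Stat6. Jak1 shares 4 bases with Raver2 (18, 0 and 10 counts), and Il27ra shares 2 with Palm3 (333, 174 and 444 counts). How many reads of the 9 genes were counted for a partner was not tested.

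**Figure D2:**
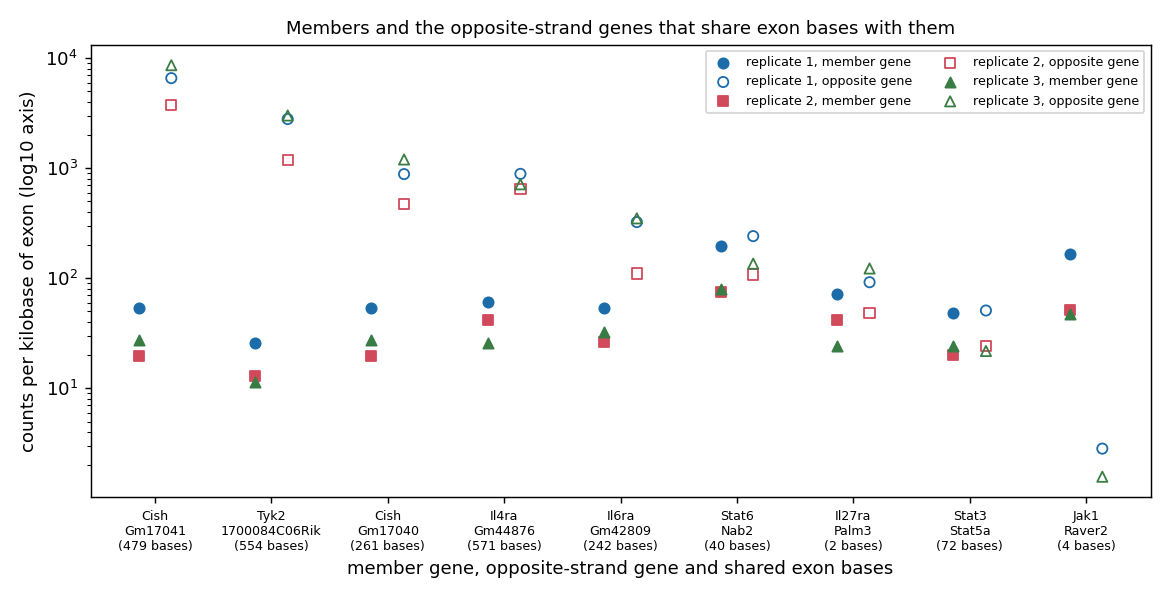
Filled symbols give counts per kilobase of exon (log10 axis) for a gene of the set and open symbols those of the opposite-strand gene that shares exon bases with it, with the number of shared bases under each pair. The 5 noncoding partners lie above the gene they overlap in every library, and Raver2 is not drawn in replicate 2, where it had 0 counts.

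Among receptor chains, 15 of 23 were detected, and the median of their mean levels was 5.67 TPM (2.69 ± 0.53 as log2(TPM + 1); SD over libraries, n = 3). Il2ra and Il2rb, chains of the IL-2 receptor, held the top places, followed by Il21r and then the third chain, Il2rg. Il2ra, the alpha chain that raises affinity for IL-2 and is induced on activated T cells, had 1253, 708 and 511 counts (97.3, 97.2 and 56.3 TPM). Il2rb, the signalling chain shared by IL-2 and IL-15, had 50.01, 48.1 and 25.3 TPM. Il2rg, the common gamma chain that also serves the receptors for IL-4, IL-7, IL-9, IL-15 and IL-21, had 47.6, 24.6 and 19.8 TPM. Of its 2387 exon bases 728 are shared with Gm20489 on the same strand. Its place in the order and the shares of the 3 chains thus depend on the length used. Il2ra was the highest of the 3 chains in every library and made up 54.2% ± 3.80 of their summed TPM (SD, n = 3). Its gene lies on chromosome 2 at 11642807 to 11693193 on the plus strand of mm10, and its exons meet no opposite-strand gene.

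The common gamma chain's partners separated widely in level. Il21r, the IL-21 receptor, had 42.4, 26.9 and 22.9 TPM and Il4ra, which binds IL-4 and serves IL-13 as well, had 27.3, 32.9 and 16.2 TPM. Il15ra, the IL-15 presenting chain, had 58, 34 and 16 counts (5.79, 6.00 and 2.26 TPM). Il7r, the IL-7 receptor that marks resting and memory T cells, had only 8, 0 and 1 counts. Il9r, the IL-9 receptor, had 0 counts in every library, which allows up to 0.475 TPM at the shallowest. Of the 6 chains that pair with the common gamma chain in this list (Il2rb, Il4ra, Il7r, Il9r, Il15ra and Il21r), Il7r and Il9r were the ones not detected.

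Of the gp130 route, the shared chain and the binding chains for IL-6 and IL-27 were detected and the LIF receptor was not. Il6st, which encodes gp130, had 24.0, 16.4 and 15.4 TPM, and Il6ra, the IL-6 binding chain, had 23.9, 20.7 and 20.5 TPM. Il27ra, the IL-27 binding chain, had 32.1, 32.5 and 15.3 TPM. Lifr, which joins gp130 in the LIF receptor, had 0 counts in all 3 libraries, which allows up to 0.228 TPM. Lif itself, taken from the list of ligands, had 209, 103 and 84 counts, so the ligand was counted and its binding chain was not. Of the further gp130 partners, Osmr and Cntfr had 0 counts and Il11ra1 had 5, 0 and 3.

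Interferon and IL-10 receptor genes averaged at most 8.49 TPM in the set. Ifnar1 and Ifnar2, the chains of the type I interferon receptor, had 116, 21 and 35 and 50, 12 and 17 counts, both lowest in replicate 2. Ifngr2, the signalling chain of the interferon gamma receptor, had 65, 42 and 36 counts (8.70, 9.94 and 6.83 TPM). Ifngr1, the ligand-binding chain of that receptor and no member of the set, had 64, 10 and 23 counts, lowest in replicate 2. Il10rb, shared by IL-10 and interferon lambda receptors, had 26, 26 and 6 counts, and Il10ra, which binds IL-10, had 8, 0 and 3. Neither IL-10 receptor chain was detected in every library; both fell between the limits.

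The remaining chains divided into detected genes and genes at or near 0. Tgfbr1 and Tgfbr2, receptor kinases for TGF-beta that act on SMADs and not on JAKs, had 6.58, 6.96 and 3.46 TPM and 9.91, 9.77 and 4.92 TPM. Il17ra, which binds IL-17 and also signals without JAKs, had 12.7, 18.6 and 10.2 TPM and was highest in replicate 2. Il1r1, the IL-1 receptor, had 1, 0 and 0 counts. Il1rl1, the IL-33 receptor of type 2 cells, and Il23r, the IL-23 receptor of T-helper 17 cells, had 0 counts in every library, which allows up to 0.341 and 0.945 TPM.

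In order of mean level, Il2ra and Il2rb each stood above the next chain in all 3 libraries, by 1.04 ± 0.10 and 0.41 ± 0.38 on a log2 scale per base (SD, n = 3). The same held for Il17ra over Ifngr2 (0.67 ± 0.20) and Tgfbr2 over Tgfbr1 (0.52 ± 0.06). The other 11 of the 15 neighbouring pairs down to Il10rb did not pass this rule (a mean beyond its SD and the same sign in 3 of 3 libraries), among them Il21r, Il2rg, Il27ra, Il4ra, Il6ra, Il6st and Il17ra in a row. Since the order came from the same 3 libraries, agreement in sign is favoured in advance, here and for steps between neighbours in the other classes.

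All 4 kinases were detected. Jak2, used by interferon gamma, IL-12 and gp130 receptors, had 695, 413 and 175 counts (61.3, 64.4 and 21.9 TPM). Jak1, used by the common gamma, gp130 and interferon receptors, had 1210, 370 and 341 counts (74.3, 40.1 and 29.7 TPM). These 2 could not be ordered, since Jak1 was above Jak2 in replicates 1 and 3 and below it in replicate 2. Jak3, the kinase bound to the common gamma chain, had 17.9, 15.2 and 11.6 TPM and Tyk2, used by type I interferon and IL-12 receptors, had 11.6, 10.2 and 7.24 TPM. Jak3 stood above Tyk2 by 0.63 ± 0.05 on the log2 scale per base (SD, n = 3), and Jak1 above Jak3 by 1.60 ± 0.39. Of the kinases' summed TPM, Jak1 held 39.4% ± 7.5, Jak2 39.2% ± 9.4, Jak3 13.0% ± 3.1 and Tyk2 8.37% ± 1.70 (SD, n = 3). Jak3 shares 404 exon bases with Insl3 on its own strand, and a read there meets both genes.

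Of the 5 STATs, 4 were detected and Stat6 was the highest. Stat6, the factor of IL-4 and IL-13 signalling, had 866, 328 and 351 counts (87.3, 58.4 and 50.1 TPM) over its exons on chromosome 10 (127642986 to 127660957, plus strand) and made up 51.8% ± 2.9 of the summed TPM of the 5 (SD, n = 3). Stat5b and Stat5a, the factors of IL-2 signalling, had 24.1, 23.8 and 17.9 TPM and 22.6, 18.9 and 13.8 TPM. Stat3, the factor of IL-6 and IL-21 signalling, had 21.5, 15.6 and 15.4 TPM. Stat6 stood above Stat5b by 1.54 ± 0.29 on the log2 scale per base (SD, n = 3), and Stat5a and Stat3 did not differ beyond their spread. Stat2, a factor of type I interferon signalling, had 38, 2 and 25 counts. Stat4, the factor of IL-12 signalling and a gene of the list of other pathway components, had 64, 11 and 22 counts, and like Stat2 it was lowest in replicate 2.

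Stat5a and Stat5b are near copies, which limits how well short reads tell them apart. Their coding sequences of 2391 and 2358 bases matched at 2080 of 2291 aligned bases (90.8%), and the longest run without a difference spanned 324 bases. Of the 50-base windows in their transcripts, 608 occurred in both genes, which is 17.1% of the windows of Stat5a and 11.8% of those of Stat5b. The stretch from coding base 541 to 660 shows how close they are, with the single differing base in capitals (build GRCm38, chromosome 11, read in the direction of each gene):
Stat5a: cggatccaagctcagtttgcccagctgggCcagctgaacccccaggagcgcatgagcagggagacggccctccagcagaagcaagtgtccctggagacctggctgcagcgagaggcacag
Stat5b: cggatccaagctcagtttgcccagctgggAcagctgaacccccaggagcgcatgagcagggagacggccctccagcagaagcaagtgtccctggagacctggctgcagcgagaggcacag
Stat5a, which has the larger share of such windows, was below Stat5b in 3 of 3 libraries, by -0.09, -0.33 and -0.38 as log2 ratios per base. The part of the shared sequence in this order was not tested. A 50-base read inside this stretch can be placed in a single gene only if it covers the capital base, so the ratio is uncertain. Among the other genes, Il2rg shared 42.0% of its windows with Gm20489, Il10rb 29.0% with Gm21970, Socs2 18.4% with Gm9847 and Socs6 11.7% with Gm9449, and 25 of the 41 genes shared none.

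Of the 9 feedback inhibitors, 6 were detected, at a median mean level of 4.99 TPM (2.48 ± 0.58 as log2(TPM + 1); SD over libraries, n = 3). Cish was the highest at 23.8, 15.5 and 17.3 TPM and held 38.5% ± 6.7 of the summed TPM of the SOCS family with Cish (SD, n = 3). Socs4, a little-studied family member linked to EGF receptor turnover, had 183, 88 and 60 counts (11.8, 10.04 and 5.49 TPM). Socs1, which inhibits JAKs downstream of interferons and common gamma chain cytokines, had 29, 6 and 14 counts (10.5, 3.86 and 7.22 TPM). Socs3, which inhibits gp130 signalling, had 15, 2 and 6 counts, and Socs2, best known for restraining growth hormone signalling, had 21, 9 and 15. Socs2 was under 1 TPM in every library. TPM divides by the 9531 exon bases of the gene, while the transcript used for the windows above held 2173 windows of 50 bases. The low level thus rests in part on the annotated length. Socs5, Socs7 and Pias1 were detected with mean levels of 4.30 to 5.41 TPM, and Socs6 had 45, 32 and 10 counts and fell between the limits. Pias1 encodes a SUMO ligase that inhibits STAT factors. Cish stood above Socs4 by 1.10 ± 0.52 on the log2 scale per base (SD, n = 3), while Socs4, Socs1, Socs7, Socs5 and Pias1 followed without steps beyond their spread.

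STAT5 and its relatives bind the letters TTCNNNGAA, which read the same on both strands, and Cish is a textbook STAT5 target. Promoter windows from 250 bases before to 50 after the RefSeq start (GRCm38.p6) were at hand for 32 of the 41 genes, and 5 of the 32 (15.6%) held the motif, against 9.55% of 27025 genes. These were Cish, Socs3, Ifnar1, Ifnar2 and Il7r. Cish alone among them held 2 copies, which begin at the start base and 11 bases after it; 0.54% of all genes held 2 or more. Both inhibitors that hold the motif are shown, with the motif in capitals, the first at chr9:107296409-107296708 (plus strand) and the second at chr11:117969317-117969616 (minus strand):
Cish: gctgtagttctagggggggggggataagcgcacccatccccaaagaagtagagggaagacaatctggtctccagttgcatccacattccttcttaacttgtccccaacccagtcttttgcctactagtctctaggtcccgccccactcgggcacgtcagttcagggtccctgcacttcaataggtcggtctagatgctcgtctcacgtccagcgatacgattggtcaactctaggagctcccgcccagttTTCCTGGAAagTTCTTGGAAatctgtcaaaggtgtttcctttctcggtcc
Socs3: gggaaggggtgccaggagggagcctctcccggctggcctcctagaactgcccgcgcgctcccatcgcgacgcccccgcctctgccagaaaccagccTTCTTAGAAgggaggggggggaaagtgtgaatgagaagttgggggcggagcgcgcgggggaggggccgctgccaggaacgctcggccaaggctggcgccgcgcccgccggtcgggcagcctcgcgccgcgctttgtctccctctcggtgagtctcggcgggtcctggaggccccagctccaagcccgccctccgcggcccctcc
Only 5 of the 9 inhibitors had a window to search, and Socs2, Socs5, Socs6 and Socs7 had none. The inhibitors with the motif differed widely in level, with Cish at 18.9 ± 4.4 and Socs3 at 1.38 ± 0.88 TPM (SD, n = 3). The match is a description of these letters in this window; binding was not measured.

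Chains of a receptor and members of a family were compared inside each library as log2 ratios of counts per base, which are free of library size. In 10 of 12 pairs the ratio kept its sign in all 3 libraries. An exact two-sided sign-flip test over 3 libraries cannot give a p below 0.25, which these 10 pairs reached (0.3 after Benjamini-Hochberg adjustment over the 12), so no pair could pass a threshold of 0.05. Il2ra over Il2rb was among the most even, at 0.96, 1.01 and 1.15, a mean of 2.06-fold. Tgfbr1 over Tgfbr2 was as even on the other side of 0, at -0.59, -0.48 and -0.50. Il2rg over Il2rb was less so, at -0.07, -0.96 and -0.35. Its sign rests on gene length, since Il2rg shares 728 of its 2387 exon bases with Gm20489 on the same strand. With those bases left out of the length, a setting added after the data were seen, the ratios were 0.45, -0.44 and 0.17 (mean 0.06 ± 0.45; SD, n = 3; exact p = 0.75).

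Larger ratios separated the members of each downstream family. Stat3 stood below Stat6 at -2.02, -1.90 and -1.70, and Tyk2 below Jak2 at -2.40, -2.66 and -1.59. Socs1 stood above Socs3 at 2.17, 2.62 and 2.40, although Socs3 had only 2 counts in replicate 2. Cish stood above Socs2 at 4.58, 4.32 and 4.09, the widest of the 11 ratios with counts on both sides in every library. Its size depends on the annotated lengths, 6419 exon bases for Cish and 9531 for Socs2. Il10ra lay below Il10rb at -1.52 and -0.77 in replicates 1 and 3, and at -2.99 or less in replicate 2, where Il10ra had 0 counts and a floor of 3 was used. Il6st over Il6ra (-0.25 ± 0.22; SD, n = 3) and Ifnar1 over Ifnar2 (0.18 ± 0.21) did not keep their sign (exact p = 0.5 for each, 0.5 adjusted).

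**Figure D3:**
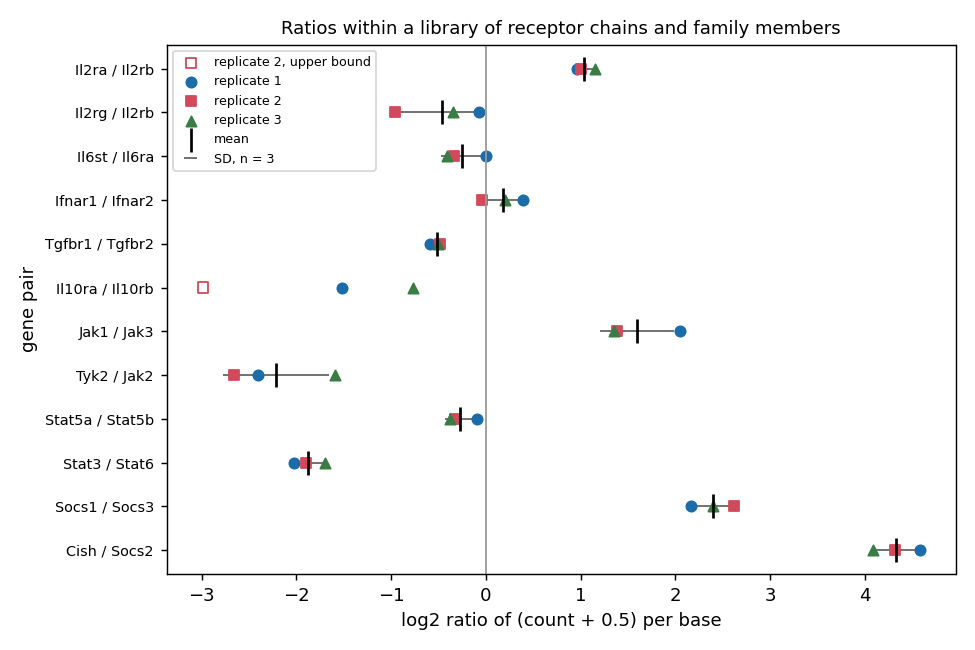
Log2 ratios of (count + 0.5) per base between genes of a pair, within each library; the black bar is the mean and the grey line the SD (n = 3). The open square marks the upper bound for Il10ra over Il10rb in replicate 2, where Il10ra had 0 counts, so no mean is drawn for that pair; Cish over Socs2 lies farthest from 0 among the pairs with a mean.

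Replicates of these genes differed by more than counting error about as often as those of other genes. With edgeR's likelihood ratio test at a dispersion of 0, 19 of the 29 genes with enough counts were called at an adjusted p of 0.05 (65.5%), against 71.6% of 9466 genes tested; the test compares libraries, not conditions. The median range between the highest and lowest library was 0.52 for the 29 genes and 0.75 for all genes tested, on the log2 CPM scale (counts scaled to library size). Jak1 (adjusted p = 9.37e-25, highest in replicate 1) and Jak2 (adjusted p = 1.12e-16, lowest in replicate 3) had the smallest adjusted p among them, and both are deeply counted. Ifnar1 had the widest range at 1.49 (adjusted p = 1.07e-05) and was lowest in replicate 2. Ifnar2, with a range of 1.07, missed the threshold (adjusted p = 0.052). Of the genes tested, 48.3% of the set and 32% of all genes were lowest in replicate 2. Without replicate 2, 6 of 32 genes of the set were called (18.8%), against 45.3% of all genes tested. Without replicate 1 the call fell on 14 of 28 (50%), against 51.4% of all, and without replicate 3 on 13 of 31 (41.9%), against 45.1%. Among clear genes alone, which have no exon inside an opposite-strand gene, 9 of 20 were called (45%), against 51.7% of all clear genes tested.

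With all genes in the scaling, the narrowest ranges between libraries belonged to Tyk2, Jak3, Stat5a and Stat5b. Jak3 ranged over 0.11 (adjusted p = 0.845), Stat5a over 0.12 (adjusted p = 0.66), Stat5b over 0.21 (adjusted p = 0.35) and Tyk2 over 0.05 (adjusted p = 0.965). These p-values do not show that the levels were equal. Over clear genes alone, where Tyk2 and Stat5a drop out, Stat5b was called (adjusted p = 0.0027, range 0.54) and Jak3 ranged over 0.38, so that Il2ra (0.19), Il2rb (0.15) and Socs4 (0.13) were narrower. Il2ra ranged over 0.29 and was called (adjusted p = 0.00412), and Il2rg ranged over 0.81 (adjusted p = 9.64e-06). The edgeR test put 4 genes among those called with a range over 1, which were Ifnar1, Socs6, Socs5 and Jak2. Over clear genes alone the calls of Socs6 (adjusted p = 0.0742) and Socs5 (adjusted p = 0.131) were lost, while those of Ifnar1 (adjusted p = 7.35e-05) and Jak2 (adjusted p = 4.9e-08, range 0.78) held.

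**Figure D4:**
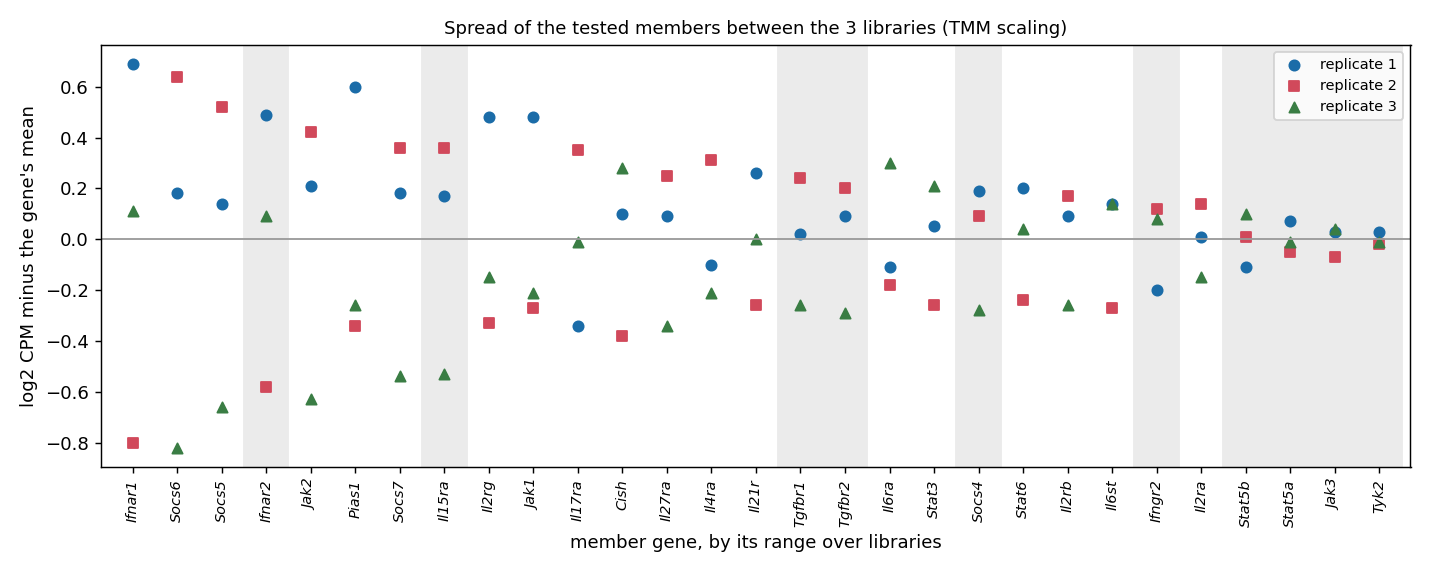
Points give log2 CPM of a gene in each library minus its mean over the 3, with TMM scaling, for the 29 genes tested, ordered by range; grey bands mark the 10 genes not called by the edgeR test. Ifnar1 at the left spans 1.49 and Tyk2 at the right spans 0.05.

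On the TPM scale, replicate 3 lay lower as a whole. The deviation of log2(TPM + 1) from each gene's own mean had medians of 0.34, 0.09 and -0.37 over the 33 genes of the set that averaged 1 TPM or more, and of 0.32, 0.11 and -0.41 over 9932 such coding genes. With TPM recomputed over clear genes, the medians were 0.12, -0.05 and -0.02 for 27 genes of the set and 0.11, -0.06 and -0.02 for 7160 coding genes. Clear genes held 31.1%, 28.3% and 17.9% of TPM, lowest in replicate 3. A level that is lowest in replicate 3 on the TPM scale is thus shared with most coding genes. In clear TPM Il2ra had 312.7, 343.0 and 313.5, while Jak2 stayed lowest in replicate 3 at 196.9, 227.2 and 121.9.

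Other genes of the same route were counted from lists of neighbours, beside the 39.8% of coding genes detected by the same rule. Of 35 further receptor chains 10 were detected and 15 had 0 counts in every library; the highest were the activin receptor Acvr2a, Il12rb1, Il12rb2 and Crlf2, a chain of the TSLP receptor. Il12rb1, the chain shared by the IL-12 and IL-23 receptors, had 31.98, 17.8 and 14.2 TPM, and Il12rb2, the chain of the IL-12 receptor, had 14.4, 15.5 and 15.1 TPM. Il12rb2 and Acvr2a share 1519 and 446 exon bases with a gene of the other strand (the largest overlap with any single gene), and Il12rb1 shares 0. Both IL-12 chains were thus detected, while Il23r, which pairs with Il12rb1 for IL-23, had 0 counts. Of 24 other pathway components 23 were detected, led by the phosphatases Ptpn6 (283.2, 230.0 and 163.6 TPM), Ptprc, which encodes CD45, and Ptpn2 and Ptpn1, which act on JAKs and STATs. Ptpn6 shares 195 exon bases with a gene of the other strand, while Ptprc, Ptpn2 and Ptpn1 share 0.

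Of 29 ligands 6 were detected, against 39.8% of coding genes, and 10 of the 29 share exon bases with the other strand. Il2 was the highest, at 252.8, 203.5 and 62.1 TPM, followed by Il3, Tgfb1 and Lif. Osm had 32, 38 and 8 counts and Il3 had 31, 38 and 10, while Osmr, the chain through which mouse oncostatin M signals, and Csf2rb, a beta chain shared by receptors for IL-3 and related cytokines, had 0 counts. Of 20 genes listed as STAT targets 17 were detected, led by Lta, Irf4, Myc and Junb. Junb shares 173 exon bases with a gene of the other strand, while Lta, Irf4 and Myc share 0. Lta, which encodes lymphotoxin alpha, had 287.7, 282.3 and 162.8 TPM, and Irf4 had 307.7, 234.4 and 153.3 TPM.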

How the data were processed

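Read pairs had been counted over the exons of each gene before deposit, and the files hold these counts as deposited, unscaled. Per the file headers, the counter was featureCounts v1.4.6-p4 at strand setting 1 with GENCODE vM13 exons, on mm10. The header's command does not turn on the counting of reads that meet several genes or places. Neither the library kit nor the aligner's version is stated in these sources; the labels name total RNA, but their link to a library protocol carries a poly(A) title. Gene lengths in bases were deposited beside the counts.

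TPM and FPKM were computed here from counts and lengths; log values use a pseudocount of 1 and ratios add 0.5 to each count. GENCODE vM21 named 50376 of 50600 genes and gave 21764 coding genes. Clear genes (15865 coding) have no exon within an opposite-strand gene's body. For genes at 0 a floor of 3 counts was used; such floors cover counting error only. Libraries were compared with edgeR 4.0.16 (TMM, filterByExpr, likelihood ratio test at dispersion 0, Benjamini-Hochberg at 0.05), checked on simulated counts, and pairs with exact sign-flip tests. The labels do not say that replicates came from separate animals, so p-values apply only to these samples. Those of edgeR at dispersion 0 measure departure from counting error. Those of the sign-flip tests do not measure spread, since they are 0.25 whenever the 3 libraries agree in sign. Windows of 50 bases and coding sequences came from GENCODE transcripts and promoters from RefSeq.

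All 41 genes are named; the 3 highest of each class, genes of pairs, genes under 1 TPM and genes overlapped across strands get values in every library. Genes and lists were chosen with earlier results of these data known, the result of 1 pathway gene is not reported here, and genes named outside this rule were chosen after their values were seen. Alternatives were other thresholds, units, pseudocounts, scalings, clear genes and leaving out each replicate, plus same-strand overlap, added after the data were seen. Python 3.11.15, pandas 2.3.3, SciPy 1.17.1, matplotlib 3.10.9, Biopython 1.88, R 4.3.3 and DESeq2 1.42.0 (size factors only) were used.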

Additional observations from a re-analysis of the deposited data

How the results depend on the processing

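Of 113 alternative values, 100 stayed within tolerance, 12 moved and 1 reversed sign. The tolerance was 1.5 times for counts, 1 SD over libraries for medians and the sign alone for ratios, so values within it could still shift; detected genes numbered 20 at 5 TPM, and Cish over Socs2 was 3.37 as a difference of log2(TPM + 1). For those that moved, the cause was not tested unless given. Counting only overlaps of at least 100 bases left 4 genes with opposite-strand exons. The median level of receptor chains (log2) was 4.06 when genes averaging under 1 TPM were left out, which drops the lowest genes. Over clear genes the medians were 4.21 for receptor chains, 6.68 for kinases, 4.61 for STATs and 4.14 for feedback inhibitors, on a TPM scale that is larger by construction. As log2(FPKM + 1) they were 1.92, 3.83, 3.35 and 1.74 in the same order. The genes called different between libraries numbered 9 over clear genes, where 20 were tested and 51.7% of all clear genes were called, and between 6 and 14 when any single replicate was dropped, the 6 without replicate 2. Leaving out a replicate gave 29 to 31 detected genes. Pair ratios kept their sign under the alternatives run, except Il2rg over Il2rb, at 0.06 without same-strand shared bases in the length, a setting chosen after seeing the data. No paired analysis was possible because the series holds 1 group. DESeq2 was not run as a test, since 1 group gives no contrast. Depth limits the genes with few counts: at under 10 counts in a library, Il7r, Il10ra, Il10rb, Stat2, Socs1, Socs2 and Socs3 cannot be ranked finely.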
